A study of Homo sapiens with 12 samples.

Results

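The difference between 2 bladder carcinoma cell lines in their response to knockdown of KMT9α was measured here. For each gene it is the log2 fold change with siKMT9α#1 over siCtrl in CAL-29 cells minus the same log2 fold change in 5637 cells, so a positive value means higher in CAL-29. All 12 of the 12 RNAseq libraries entered the comparison, which used 15395 genes. CAL-29 and 5637 are established human lines, both with the genotype WT, and RNA was taken at day 3 after transfection. Each line had 3 libraries with the control siRNA, siCT in the labels and siCtrl here, and 3 with the siRNA against KMT9α, which the labels call siRNA. The labels do not say which siRNA that was, the deposited columns call it si270, and its identity as siKMT9α#1 is taken from the study's results. CAL-29 cells were transfected with RNAiMAX and 5637 cells with DharmaFECT 3 at a higher siRNA concentration, so line, reagent and dose cannot be told apart in any value below. Nothing states that the 3 libraries of a group came from separate cultures, and p-values therefore measure only the spread between these libraries.

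KMT9 is a heterodimer of a catalytic subunit, KMT9α, encoded by N6AMT1, and a second subunit, KMT9β, encoded by TRMT112, which also serves several other methyltransferases. The enzyme places a single methyl group on a lysine of histone H4 at gene promoters and methylates other proteins as well. Urothelial carcinoma lines range from a luminal to a basal state, and lines differ in which inflammatory, adhesion and growth factor genes are active before any treatment.

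The siRNA lies in coding exon 3 of N6AMT1, and its target is shown because every value here depends on it and because its seed recurs in other transcripts. The target is at chr21:30254500-30254524 on the minus strand of GRCh37, the assembly that hg19 denotes, and the capitals mark the 7 bases opposite guide positions 2 to 8.
N6AMT1 target: acgctgtaacaaagttcACATTCAa
In CAL-29 cells, N6AMT1 stood at 11.1, 9.98 and 9.43 CPM in the siCtrl libraries and at 2.78, 2.89 and 1.96 CPM in the siKMT9α#1 libraries. In 5637 cells, N6AMT1 stood at 13.7, 13.4 and 13.5 CPM with siCtrl and at 3.83, 2.26 and 2.62 CPM with siKMT9α#1. Values are in CPM, counts scaled to a common library size after TMM normalization, and N6AMT1 was lower in all siKMT9α#1 libraries than in any siCtrl library of the same line. On the log2 scale N6AMT1 changed by -1.98 ± 0.14 (SE) in CAL-29 and by -2.23 ± 0.14 in 5637. The difference between the lines was 0.25 ± 0.21, with a 95% interval from -0.18 to 0.68 (adjusted p = 0.338, edgeR quasi-likelihood test with Benjamini-Hochberg adjustment), and was not separable from 0 at this spread. Without replicate 1 of the 5637 siKMT9α#1 libraries, which held the most N6AMT1 of its group, the difference was 0.494. TRMT112 changed by 0.29 ± 0.06 in CAL-29 and by 0.16 ± 0.05 in 5637, and its difference of 0.13 ± 0.07 had an interval from -0.02 to 0.28.

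Libraries held between 24479488 and 35148657.5 counts. Replicates of a group were not copies of each other, since their counts differed by a chi-square of 2.25 to 12.3 per degree of freedom, and the common coefficient of variation was 4.27%. All 6 epithelial markers reached 1 CPM in every group, and their sum was between 10500 and 10900 CPM in CAL-29 siCtrl, between 5140 and 5280 CPM in CAL-29 siKMT9α#1, between 7550 and 7880 CPM in 5637 siCtrl and between 4930 and 5170 CPM in 5637 siKMT9α#1. Between 2 and 4 of 13 markers of immune, endothelial, muscle and stromal cells reached 1 CPM. Their sum was between 10.1 and 11.8 CPM in CAL-29 siCtrl and between 19.4 and 20.8 CPM in CAL-29 siKMT9α#1, and between 8.96 and 10.8 CPM and between 10.4 and 11.5 CPM in 5637. In CAL-29 the macrophage marker CD68 stood at 4.36 to 5.7 CPM with siCtrl and 9.65 to 11.7 CPM with siKMT9α#1, and the endothelial marker CDH5 at 0.514 to 0.891 and 3.47 to 4.04 CPM. Their part in the results below was not tested. The T cell marker CD3E was at 0 in 3 of the 4 groups. In bulk RNA, fewer cells in a given state and less RNA per cell cannot be told apart.

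The lines differed in the response of part of the genes, and 13742 of 15395 did not pass the 1.5-fold test described below. The study reports that most genes changed in both lines, at its threshold within each line, moved the same way. At the unadjusted p below 1e-06 that the study's methods use, 2421 of 15395 genes (15.7%) had a different response in the 2 lines, 1327 of them higher in CAL-29 and 1094 higher in 5637. At an adjusted p below 0.05 the count was 7764 (50.4%), since replicates lay close together and the median absolute difference over all genes was only 0.34 on the log2 scale. A test against a difference of 1.5-fold, with an adjusted p below 0.05, is therefore the call used in the rest of the text. It was passed by 1653 genes (10.7%), with 889 higher in CAL-29 (5.77%) and 764 higher in 5637 (4.96%). These shares over all genes are the comparison for every count of called list members below. Scaling by total counts moved the median difference of all genes from 0.043 to 0.16, and the call then gave 1217 higher in CAL-29 and 572 higher in 5637, 68% against 53.8% with TMM, so the balance between the directions depends on the scaling. A mean of at least 50 counts in each of the 4 groups was reached by 11530 genes, of which 1193 passed.

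**Figure D1:**
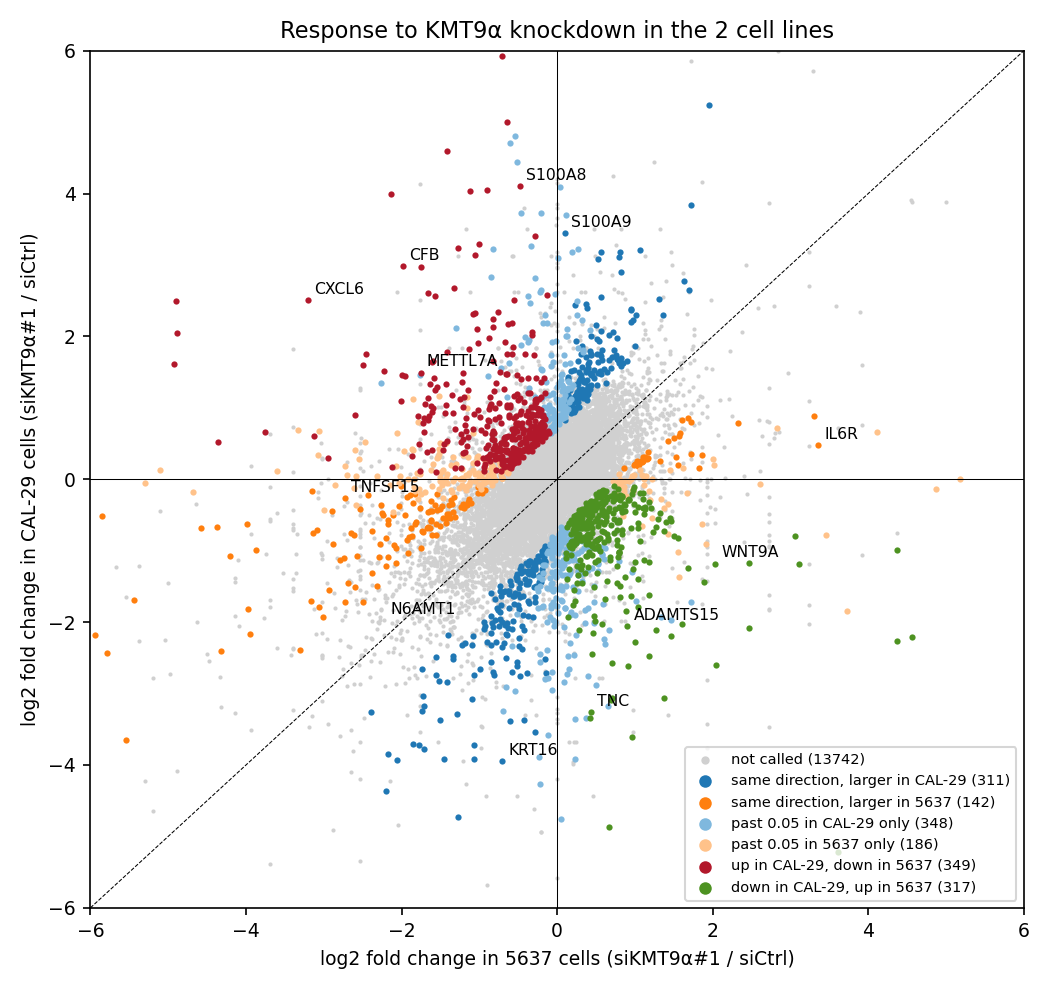
Log2 fold change with siKMT9α#1 in 5637 cells (horizontal axis) and in CAL-29 cells (vertical axis) for the genes tested, 1 point per gene, with the 1653 genes past the 1.5-fold test coloured by class and the dashed line marking equal responses; 16 genes lie outside the axes. Points above the dashed line are higher in CAL-29, and the red and green classes of 349 and 317 genes lie in the upper left and lower right, where the lines moved in opposite directions.

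Opposite directions were common among these genes, which were called for a difference between the lines. Of the 1653, 349 were upregulated in CAL-29 and downregulated in 5637 (21.1% of the 1653 and 2.27% of all genes), and 317 were downregulated in CAL-29 and upregulated in 5637 (19.2%, and 2.06% of all genes), with an adjusted p below 0.05 in each line. The median log2 fold changes were 0.69 in CAL-29 and -0.63 in 5637 for the first class and -0.66 and 0.51 for the other. Of these 666 genes (4.33% of all genes), 186 moved by at least 1.5-fold in each line, 113 of them upregulated in CAL-29. In 619 of the 666 the siKMT9α#1 and siCtrl libraries did not overlap in either line, which their selection at 0.05 in each line favours. Over all genes tested the libraries did not overlap for 70% in CAL-29 cells and for 68.7% in 5637 cells. These shares take each line alone and are no like comparison for a count over both lines. A further 311 genes (18.8%) moved the same way in both lines with the larger change in CAL-29, and 142 (8.6%) with the larger change in 5637. The remaining calls passed 0.05 in CAL-29 alone (348 genes, 21.1%) or in 5637 alone (186 genes, 11.3%).

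Among genes upregulated in CAL-29 and downregulated in 5637, those with at least 50 counts in each group and the largest change in the line that moved less were CXCL6, CFB, METTL7A, LIMCH1, MUC20 and CSF1. CXCL6 (chr4:74702357-74714781, plus strand, GRCh37) encodes a chemokine that attracts neutrophils. In CAL-29 cells, CXCL6 stood at 3.25, 2.90 and 2.03 CPM in the siCtrl libraries and at 14.6, 16.6 and 15.2 CPM in the siKMT9α#1 libraries. In 5637 cells, CXCL6 stood at 226, 209 and 231 CPM with siCtrl and at 24.2, 24.8 and 23.3 CPM with siKMT9α#1. The direction was opposite in the 2 lines and no libraries overlapped within a line, and the siCtrl level was far higher in 5637 than in CAL-29. CXCL6 had log2 fold changes of 2.51 ± 0.11 in CAL-29 and -3.20 ± 0.06 in 5637, a difference of 5.72 ± 0.12 (adjusted p = 6.32e-24). CFB (chr6:31913427-31919863, plus strand) encodes complement factor B of the alternative pathway. In CAL-29 cells, CFB stood at 8.16, 7.85 and 7.81 CPM in the siCtrl libraries and at 59.9, 62.9 and 66.1 CPM in the siKMT9α#1 libraries. In 5637 cells, CFB stood at 28.3, 24.9 and 28.8 CPM with siCtrl and at 7.43, 6.78 and 6.61 CPM with siKMT9α#1. The 3 libraries of each group kept close together, and after knockdown the order of the lines was the reverse of that with siCtrl. CFB had log2 fold changes of 2.99 ± 0.07 in CAL-29 and -1.98 ± 0.08 in 5637, a difference of 4.97 ± 0.11 (adjusted p = 1.86e-23). In the annotation, 42.8% of the exon bases of CFB are shared with C2 and a read-through transcript on the same strand, so part of its counts could belong to them.

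METTL7A, a methyltransferase of lipid droplets and the endoplasmic reticulum, was higher in CAL-29 to begin with. In CAL-29 cells, METTL7A stood at 47.8, 46.5 and 46.3 CPM in the siCtrl libraries and at 122, 134 and 140.0 CPM in the siKMT9α#1 libraries. In 5637 cells, METTL7A stood at 6.59, 7.2 and 6.18 CPM with siCtrl and at 1.76, 1.88 and 2.21 CPM with siKMT9α#1. The 2 lines moved further apart after knockdown, with no overlap within a line. METTL7A had log2 fold changes of 1.49 ± 0.05 in CAL-29 and -1.75 ± 0.12 in 5637, a difference of 3.25 ± 0.13 (adjusted p = 2.11e-16). LIMCH1, an activator of non-muscle myosin, went from a mean of 61.6 ± 0.820 (SD, n = 3) to 164 ± 11.1 CPM in CAL-29 cells and from 20.5 ± 0.724 to 6.84 ± 0.600 CPM in 5637 cells. The membrane mucin MUC20 rose from 41.2 ± 2.81 to 97.9 ± 2.77 CPM in CAL-29 cells and fell from 5.48 ± 0.549 to 1.85 ± 0.159 CPM in 5637 cells. CSF1, the growth factor of macrophages, started from more similar levels, and it rose from 51.0 ± 4.19 to 121 ± 1.90 CPM in CAL-29 cells and fell from 83.3 ± 5.40 to 37.7 ± 2.35 CPM in 5637 cells. The differences between the lines were 3.00 ± 0.09 for LIMCH1, 2.82 ± 0.14 for MUC20 and 2.39 ± 0.08 for CSF1, with adjusted p-values of 3.50e-19, 2.19e-14 and 1.15e-17. For MUC20, 27.1% of the exon bases are shared with MUC20-OT1, and for METTL7A 18.9% with an unnamed gene, both on the same strand.

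The 6 corresponding genes in the other direction were WNT9A, SERPINB2, N4BP3, ADAMTS15, FAM43A and CCDC88B. WNT9A (chr1:228106357-228135633, minus strand), a secreted Wnt ligand, was low in all groups. In CAL-29 cells, WNT9A stood at 7.92, 8.23 and 7.26 CPM in the siCtrl libraries and at 5.24, 2.83 and 2.12 CPM in the siKMT9α#1 libraries. In 5637 cells, WNT9A stood at 2.63, 1.86 and 1.43 CPM with siCtrl and at 6.78, 8.89 and 8.39 CPM with siKMT9α#1. The siCtrl level in CAL-29 and the siKMT9α#1 level in 5637 were alike, and the libraries did not overlap within a line. WNT9A had log2 fold changes of -1.18 ± 0.20 in CAL-29 and 2.03 ± 0.21 in 5637, a difference of -3.21 ± 0.29 (adjusted p = 8.65e-09). SERPINB2 encodes an inhibitor of plasminogen activators. In CAL-29 cells, SERPINB2 stood at 25.6, 22.5 and 20.6 CPM in the siCtrl libraries and at 10.6, 10.8 and 9.18 CPM in the siKMT9α#1 libraries. In 5637 cells, SERPINB2 stood at 219, 246 and 212 CPM with siCtrl and at 460.4, 511 and 568 CPM with siKMT9α#1. Levels in 5637 were the higher ones in every group, and knockdown widened the gap between the lines. SERPINB2 had log2 fold changes of -1.16 ± 0.10 in CAL-29 and 1.19 ± 0.06 in 5637, a difference of -2.34 ± 0.12 (adjusted p = 7.94e-14). In the annotation, part of its exon bases is shared with an unnamed gene on the same strand. N4BP3, a partner of the ubiquitin ligase NEDD4, showed the opposite starting order. In CAL-29 cells, N4BP3 stood at 103, 106 and 107 CPM in the siCtrl libraries and at 48.1, 47.2 and 46.2 CPM in the siKMT9α#1 libraries. In 5637 cells, N4BP3 stood at 11.1, 10.5 and 11 CPM with siCtrl and at 21.4, 22.6 and 21.1 CPM with siKMT9α#1. Here knockdown brought the lines closer. N4BP3 had log2 fold changes of -1.16 ± 0.05 in CAL-29 and 1.0 ± 0.06 in 5637, a difference of -2.16 ± 0.08 (adjusted p = 7.85e-17).

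ADAMTS15, a secreted metalloproteinase that cleaves proteoglycans, fell from 27.1 ± 0.971 to 6.5 ± 0.449 CPM in CAL-29 cells and rose from 19.8 ± 0.722 to 37 ± 1.6 CPM in 5637 cells, a difference of -2.96 ± 0.10 (adjusted p = 4.16e-18). FAM43A had nearly equal siCtrl levels of 27.1 ± 1.27 CPM in CAL-29 and 26.7 ± 0.976 CPM in 5637, and ended at 14.9 ± 2.59 and 56.0 ± 3.03 CPM. CCDC88B, which links membranes to dynein in lymphoid cells, went from 8.51 ± 1.03 to 4.35 ± 1.02 CPM in CAL-29 cells and from 3.26 ± 0.132 to 5.77 ± 0.643 CPM in 5637 cells. In all 3 genes the siKMT9α#1 libraries lay on opposite sides of siCtrl in the 2 lines, and the differences for the last 2 were -1.93 ± 0.11 and -1.77 ± 0.21.

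A larger response of the same direction in CAL-29 was led by S100A9, KRT16, ANKRD34B, TMCC2, STEAP1 and ITGA1. S100A9 (chr1:153330330-153333499, plus strand) encodes a subunit of calprotectin, a calcium-binding protein of myeloid cells and stressed epithelium. In CAL-29 cells, S100A9 stood at 33.0, 33.9 and 28.8 CPM in the siCtrl libraries and at 334, 347 and 362 CPM in the siKMT9α#1 libraries. In 5637 cells, S100A9 stood at 647, 662 and 694 CPM with siCtrl and at 721, 720.2 and 713 CPM with siKMT9α#1. All 3 CAL-29 libraries rose well above the siCtrl libraries, while the 5637 libraries, already high with siCtrl, moved little. S100A9 had log2 fold changes of 3.44 ± 0.05 in CAL-29 and 0.10 ± 0.04 in 5637, a difference of 3.34 ± 0.07 (adjusted p = 2.53e-23). KRT16, a keratin of stressed and basal-type epithelium, moved the other way. In CAL-29 cells, KRT16 stood at 74.3, 84.3 and 80.6 CPM in the siCtrl libraries and at 5.11, 4.15 and 6.44 CPM in the siKMT9α#1 libraries. In 5637 cells, KRT16 stood at 14, 14.3 and 14.5 CPM with siCtrl and at 8.12, 9.23 and 8.86 CPM with siKMT9α#1. With siCtrl the level was higher in CAL-29, and with siKMT9α#1 it was higher in 5637. KRT16 had log2 fold changes of -3.95 ± 0.09 in CAL-29 and -0.71 ± 0.09 in 5637, a difference of -3.24 ± 0.14 (adjusted p = 3.68e-16). STEAP1, a membrane protein of the cell surface, rose from 5.73 ± 0.735 to 52.0 ± 3.46 CPM in CAL-29 cells and from 8.67 ± 0.824 to 12.8 ± 0.415 CPM in 5637 cells. ITGA1, the α chain of a collagen receptor, fell from 132 ± 4.01 to 20.2 ± 0.864 CPM in CAL-29 cells and only from 34.5 ± 1.58 to 31.4 ± 2.62 CPM in 5637 cells. ANKRD34B and TMCC2, a protein of the endoplasmic reticulum, had log2 fold changes of -3.38 and -3.71 in CAL-29 and of -0.60 and -1.07 in 5637. The 5637 groups overlapped for ITGA1 and ANKRD34B. In 5637 alone, the quasi-likelihood test gave adjusted p-values of 0.0446 for S100A9 and 0.0416 for ITGA1. Their placing as same-direction genes thus rests on values just under 0.05.

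A larger response in 5637 was led by IL6R, TNFSF15, CYP24A1, MEST, C15orf48 and GCNT2, of which IL6R was upregulated and the other 5 downregulated. IL6R (chr1:154377669-154441926, plus strand) encodes the receptor of interleukin 6. In CAL-29 cells, IL6R stood at 17.1, 13.4 and 14.1 CPM in the siCtrl libraries and at 23.3, 19.3 and 19.3 CPM in the siKMT9α#1 libraries. In 5637 cells, IL6R stood at 4.67, 4.97 and 3.92 CPM with siCtrl and at 45.6, 45.2 and 47.8 CPM with siKMT9α#1. Knockdown thus turned the order of the lines round. IL6R had log2 fold changes of 0.47 ± 0.09 in CAL-29 and 3.36 ± 0.10 in 5637, a difference of -2.89 ± 0.13 (adjusted p = 7.52e-15). TNFSF15 (chr9:117546932-117568319, minus strand) is a cytokine of the TNF family. In CAL-29 cells, TNFSF15 stood at 38.2, 34.9 and 30.9 CPM in the siCtrl libraries and at 29.8, 28 and 28.7 CPM in the siKMT9α#1 libraries. In 5637 cells, TNFSF15 stood at 16.6, 15.3 and 14.2 CPM with siCtrl and at 2.07, 2.45 and 2.42 CPM with siKMT9α#1. In CAL-29 cells the groups lay next to each other, and in 5637 cells they were far apart. TNFSF15 had log2 fold changes of -0.27 ± 0.07 in CAL-29 and -2.73 ± 0.11 in 5637, a difference of 2.46 ± 0.14 (adjusted p = 1.15e-12). CYP24A1, which inactivates vitamin D, fell from 187 ± 4.83 to 138 ± 4.39 CPM in CAL-29 cells and from 25.2 ± 1.92 to 3.40 ± 0.340 CPM in 5637 cells, a difference of 2.45 ± 0.10 (adjusted p = 8.13e-16). The imprinted gene MEST fell from 802 ± 9.13 to 602 ± 44.1 CPM in CAL-29 cells and from 54.7 ± 0.782 to 9.46 ± 0.600 CPM in 5637 cells. C15orf48, which encodes a small mitochondrial protein and hosts miR-147b, had a log2 fold change of -0.10 ± 0.04 in CAL-29 and -2.01 ± 0.04 in 5637. Its small CAL-29 change had an adjusted p of 0.0279 in the quasi-likelihood test of that line. GCNT2, an enzyme of I-antigen branching, had -0.48 ± 0.12 and -2.25 ± 0.15. Of the exon bases of MEST, 27.6% lie opposite genes on the other strand, and 21.6% of those of C15orf48 are shared on the same strand. Whether the counting used strand is not stated, so reads of such partners cannot be separated.

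**Figure D2:**
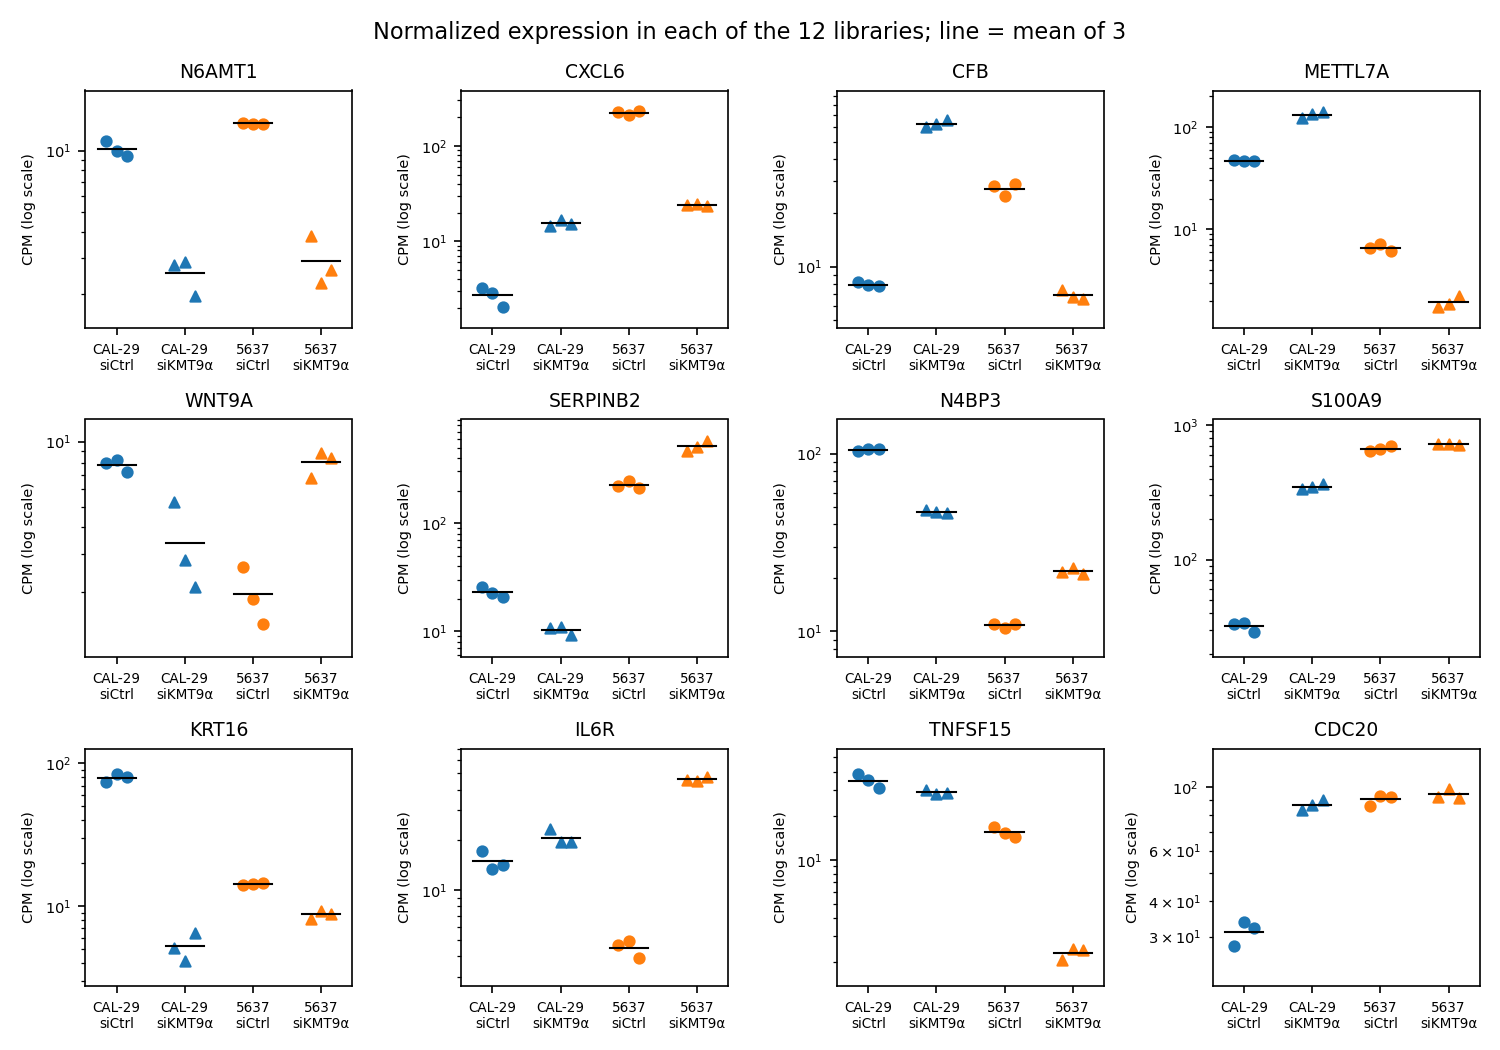
Normalized expression in CPM on a log axis for N6AMT1 and 11 genes named in the text, with 1 point per library (circles siCtrl, triangles siKMT9α#1, blue CAL-29, orange 5637) and a bar at the mean of the 3. N6AMT1 fell in both lines, CXCL6, CFB and METTL7A rose in CAL-29 and fell in 5637, WNT9A, SERPINB2 and N4BP3 did the reverse, and S100A9 and CDC20 rose in CAL-29 to nearer the 5637 level.

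Genes of the cell cycle were upregulated more in CAL-29 than in 5637. Of 54 genes of G2 and M phase, 28 passed the 1.5-fold test as higher in CAL-29 and 0 as higher in 5637, beside 5.77% and 4.96% of all genes, and 52 of 54 differences were above 0. The median log2 fold change was 1.10 in CAL-29 and 0.27 in 5637, with 50 members upregulated at an adjusted p below 0.05 in CAL-29 and 35 in 5637, beside 35.2% and 31.4% of all genes. Downregulated were 3 and 5 of the 54, beside 34.2% and 32.3% of all genes. The median difference of the list was 0.81 and that of all genes 0.04. CDC20, the activator of the anaphase-promoting complex, is an example. In CAL-29 cells, CDC20 stood at 27.9, 33.8 and 32.0 CPM in the siCtrl libraries and at 83.3, 86.5 and 90.0 CPM in the siKMT9α#1 libraries. In 5637 cells, CDC20 stood at 85.9, 93.6 and 92.6 CPM with siCtrl and at 92.5, 98.8 and 92.1 CPM with siKMT9α#1. The CAL-29 libraries rose close to the level that 5637 already had with siCtrl, and in 5637 cells the groups overlapped. CDC20 had log2 fold changes of 1.47 ± 0.06 in CAL-29 and 0.06 ± 0.05 in 5637, a difference of 1.41 ± 0.08 (adjusted p = 1.20e-10). CENPE, a kinesin of the kinetochore, had log2 fold changes of 1.46 and 0.05 in CAL-29 and 5637, DLGAP5, a spindle protein, 1.58 and 0.32, and the mitotic kinase AURKA 1.75 and 0.52.

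Promoter windows of 5 mitotic genes are shown because promoters of this phase often carry a short element. The sequences come from the RefSeq promoters of GRCh38.p14, which span each gene's start, are printed in the direction of the gene, and carry in capitals the cell cycle homology region TTTGAA. They lie at chr1:43358904-43358933 for CDC20, chr14:55191565-55191594 (minus strand) for DLGAP5, chr15:59105105-59105134 for CCNB2, chr4:120066807-120066836 (minus strand) for MAD2L1 and chr15:40161034-40161063 for BUB1B.
CDC20: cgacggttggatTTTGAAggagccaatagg
DLGAP5: cggtgcggcaagTTTGAAtttcgtggaggc
CCNB2: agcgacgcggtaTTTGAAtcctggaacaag
MAD2L1: tgcgtcgttactTTTGAAacgcttggcggg
BUB1B: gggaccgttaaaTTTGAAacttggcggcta
These 6 letters were found on either strand in 31 of the 45 G2/M promoters with a sequence (68.9%), in 51 of 246 promoters of genes that moved the same way with the larger change in CAL-29 (20.7%), and in 9.9% of the 11995 promoters of tested genes. In the promoters of CENPE, CCNB1, CDC25C and BUB1 this window held no match.

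S phase and replication lists, which share members, had their calls on the CAL-29 side. Of 43 S phase genes, 15 were higher in CAL-29 and 0 in 5637 (5.77% and 4.96% of all genes), with medians of 0.58 and 0.02. Of 43 proteins of replication origins and forks, 12 were higher in CAL-29 and 0 in 5637, with medians of 0.49 and -0.07. Opposite directions were called for 5 of the S phase and 6 of the replication genes, beside 4.33% of all genes. CDCA7, a chromatin protein induced in S phase, had log2 fold changes of 0.88 ± 0.08 in CAL-29 and -0.62 ± 0.06 in 5637. The replicative helicase subunit MCM3 (0.70 and -0.35), the helicase cofactor CDC45 (0.80 and -0.20) and TIMELESS of the fork protection complex (0.38 and -0.65) likewise rose in CAL-29 and fell in 5637. MCM6, another helicase subunit, fell in both lines, by 0.57 in CAL-29 and by 1.62 in 5637 on the log2 scale.

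For the kinetochore and spindle checkpoint the count was 9 of 31 higher in CAL-29 and 0 in 5637. It was 6 of 17 and 0 for the E2F and RB family, and 6 of 24 and 0 for recombination and Fanconi anemia repair. The shares over all genes were 5.77% and 4.96%. BUB1 (1.56 and 0.39), BUB1B (1.64 and 0.52) and MAD2L1 (1.5 and 0.29) of the spindle checkpoint rose in both lines and more in CAL-29. The transcription factor E2F5 went from 19.4 ± 1.67 to 6.41 ± 0.248 CPM in 5637 cells and from 6.08 ± 0.530 to 7.05 ± 0.437 CPM in CAL-29 cells, and TFDP2, a partner of E2F proteins, had log2 fold changes of -1.0 in 5637 and 0.01 in CAL-29. FANCD2, the monoubiquitinated core of the Fanconi pathway, rose by 0.63 ± 0.05 in CAL-29 and changed by -0.34 ± 0.04 in 5637. Among 24 cyclins, CDKs and CDK inhibitors, 5 were higher in CAL-29 and 2 in 5637. CDKN1A, which encodes the CDK inhibitor p21, was 1 of those 2.

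In CAL-29 cells, CDKN1A stood at 277, 285 and 291 CPM in the siCtrl libraries and at 172, 168 and 163 CPM in the siKMT9α#1 libraries. In 5637 cells, CDKN1A stood at 202, 208 and 196 CPM with siCtrl and at 296, 329.8 and 320.2 CPM with siKMT9α#1. The lines moved in opposite directions with no overlap, and p21 RNA ended higher in 5637. CDKN1A had log2 fold changes of -0.76 ± 0.04 in CAL-29 and 0.64 ± 0.04 in 5637, a difference of -1.41 ± 0.06 (adjusted p = 6.84e-13). The mitotic cyclins CCNB1 (1.67 and 0.57) and CCNB2 (1.27 and 0.29) rose in both lines. Of 22 p53 target genes, among them CDKN1A, 1 was higher in CAL-29 and 2 in 5637, and the list's median difference was 0.02. Called were 13.6% of this list, a share near the 10.7% of all genes. The death receptor gene FAS had the reverse pattern to CDKN1A, with log2 fold changes of 1.02 ± 0.08 in CAL-29 and -0.34 ± 0.08 in 5637. SESN2, a stress-induced inhibitor of mTORC1 signalling, fell from 67.8 ± 0.912 to 38.0 ± 2.08 CPM in CAL-29 cells, while its means in 5637 cells were 49.6 ± 4.60 and 50.6 ± 1.84 CPM, and its call was lost under total count scaling.

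**Figure D3:**
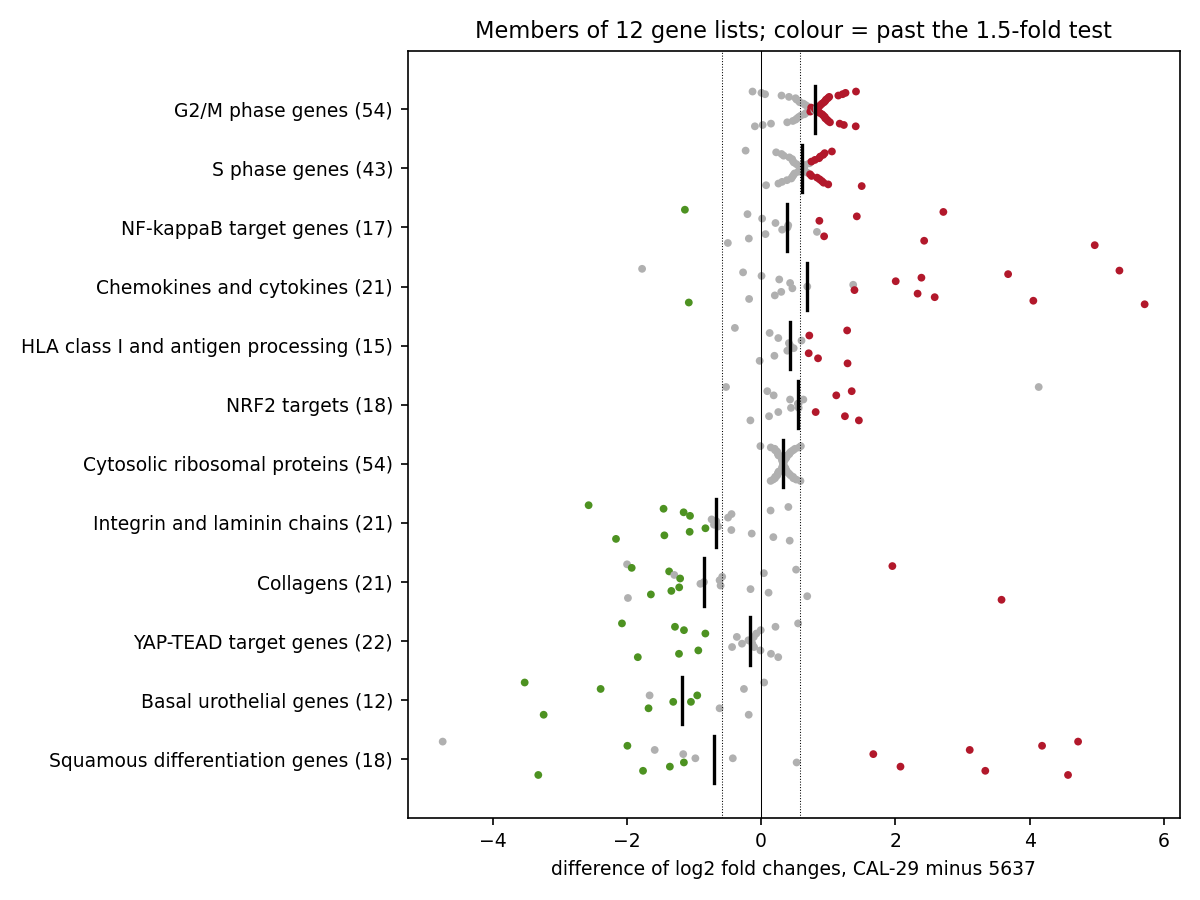
Difference of log2 fold changes (CAL-29 minus 5637, horizontal axis) for each tested member of 12 gene lists, with the number of members in parentheses, black bars at the medians, and colour for members past the 1.5-fold test (red higher in CAL-29, green higher in 5637; dotted lines mark 1.5-fold). G2/M members crowd to the right of 0, ribosomal proteins form a tight group at a median of 0.33 with no call, integrin and laminin chains and basal genes lie to the left, and squamous genes are spread to both sides.

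Among inflammatory genes, calls lay mostly on the CAL-29 side, and several genes fell in 5637. Of 21 chemokines and cytokines, 9 were higher in CAL-29 and 1 in 5637, beside 5.77% and 4.96% of all genes. Called in opposite directions were 6 (4.33% of all genes). The medians were 0.46 in CAL-29 and -0.28 in 5637, and 10 of the 21 had at least 50 counts in each group. CXCL8, interleukin 8, is shown for every library. In CAL-29 cells, CXCL8 stood at 55.0, 46.9 and 38.8 CPM in the siCtrl libraries and at 173, 155 and 145 CPM in the siKMT9α#1 libraries. In 5637 cells, CXCL8 stood at 378, 369.7 and 360.1 CPM with siCtrl and at 239.7, 246 and 256 CPM with siKMT9α#1. Each CAL-29 library rose and each 5637 library fell relative to all siCtrl libraries of its line. CXCL8 had log2 fold changes of 1.75 ± 0.07 in CAL-29 and -0.58 ± 0.07 in 5637, a difference of 2.33 ± 0.10 (adjusted p = 2.95e-15). CXCL1, another neutrophil chemokine, rose from 98.7 ± 8.78 to 373 ± 8.87 CPM in CAL-29 cells and fell from 403 ± 8.92 to 254 ± 4.79 CPM in 5637 cells. Of 17 NF-κB target genes, 6 were higher in CAL-29 and 1 in 5637, with medians of 0.48 and -0.13. BIRC3, an inhibitor of apoptosis and classical NF-κB target, had log2 fold changes of 2.59 ± 0.06 and -0.13 ± 0.05, TNFAIP2 1.86 ± 0.05 and -0.57 ± 0.05, and SOD2, the mitochondrial superoxide dismutase, 2.37 ± 0.05 and 0.95 ± 0.04. TRAF1, a signalling adaptor, was the called member on the other side, with -1.37 ± 0.12 in CAL-29 and -0.23 ± 0.13 in 5637.

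Matches to the κB motif of the NF-κB family are shown for 4 genes of these groups that hold one. The sequences are RefSeq promoter windows of GRCh38.p14 on the plus strand, at chr4:73836579-73836608 for CXCL6, chr4:73869305-73869334 for CXCL1, chr11:102317339-102317368 for BIRC3 and chr9:128149268-128149297 for LCN2, and the capitals mark the 10 matching bases.
CXCL6: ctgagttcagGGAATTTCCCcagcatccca
CXCL1: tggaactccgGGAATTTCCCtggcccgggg
BIRC3: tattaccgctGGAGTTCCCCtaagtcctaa
LCN2: cagcactccgGGAATGTCCCtcactctccc
A match on either strand was found in 9 of 15 promoters of the chemokine list (60.0%), in 8 of 15 of the NF-κB target list (53.3%), in 31 of 262 promoters of genes upregulated in CAL-29 and downregulated in 5637 (11.8%), in 15 of 238 of the reverse class (6.3%), and in 6.7% of all 11995 promoters. CFB, METTL7A, LIMCH1, TNFAIP2, SOD2, CXCL8 and S100A8 held no match in this window. A match is a run of letters and was not tested as a binding site.

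Of 15 genes of HLA class I and antigen processing, 5 were higher in CAL-29 (beside 5.77% of all genes) and 0 in 5637, with medians of 0.14 and -0.32, and 12 of the 15 were downregulated in 5637, beside 32.3% of all genes. Immunoproteasome subunits made up 3 of the 5 calls. PSMB9 had log2 fold changes of 0.79 ± 0.06 and -0.50 ± 0.06 in CAL-29 and 5637, PSMB8, whose call was lost with DESeq2, 0.66 ± 0.06 and -0.18 ± 0.06, and PSMB10 1.18 ± 0.06 and -0.10 ± 0.06. TAPBP, which loads peptides on class I molecules, passed with an adjusted p of 0.0445 and lost the call under 5 of the alternatives with all libraries. Of 32 interferon-stimulated genes, 5 were higher in CAL-29 and 1 in 5637, and 17 were upregulated in CAL-29 (35.2% of all genes) against 4 in 5637 (31.4%), where 19 were downregulated (32.3%). The antiviral GTPase gene MX2 (0.35 and -0.86), TRIM22 (0.68 and -0.51) and IFIT2 (0.75 and -0.34) each rose in CAL-29 and fell in 5637. Of 11 genes that sense double-stranded RNA, 2 were higher in CAL-29 and 0 in 5637. These were TLR3 (0.28 and -0.79), an endosomal receptor, and the kinase gene IKBKE (0.49 and -0.26), and both lost the call with DESeq2.

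Basal urothelial genes had their calls on the 5637 side, through falls in CAL-29. Of 12 tested, 7 were higher in 5637 and 0 in CAL-29, beside 4.96% and 5.77% of all genes. The medians were -1.07 in CAL-29 and 0.06 in 5637, and 4 were called in opposite directions (4.33% of all genes). KRT6A, a keratin of hyperproliferative epithelium with near-identical paralogs, is 1 of them. In CAL-29 cells, KRT6A stood at 55.7, 55.9 and 51.6 CPM in the siCtrl libraries and at 15.8, 13.9 and 13.4 CPM in the siKMT9α#1 libraries. In 5637 cells, KRT6A stood at 279, 306 and 282 CPM with siCtrl and at 389, 397 and 417 CPM with siKMT9α#1. CAL-29 libraries fell and 5637 libraries rose with no overlap. KRT6A had log2 fold changes of -1.92 ± 0.06 in CAL-29 and 0.47 ± 0.04 in 5637, a difference of -2.39 ± 0.08 (adjusted p = 5.29e-18). KRT17, another basal keratin, fell in both lines, from 1795 ± 151 to 219.8 ± 8.35 CPM in CAL-29 and from 1653 ± 52.4 to 502 ± 7.87 CPM in 5637. The desmosomal cadherin gene DSG3 had log2 fold changes of -0.91 ± 0.05 and 0.77 ± 0.06. The defining markers KRT5, KRT14, TP63 and CD44 together stood between 2490 and 2760 CPM in CAL-29 siCtrl, between 1240 and 1280 CPM in CAL-29 siKMT9α#1, between 1850 and 1940 CPM in 5637 siCtrl and between 1690 and 1710 CPM in 5637 siKMT9α#1. KRT5 made up most of each sum and fell in both lines, and KRT14 was at 3.4 CPM or less. TP63 fell from 184 to 218 CPM to 125 to 127 CPM in CAL-29. In 5637, TP63 rose from 126 to 128 CPM to 162 to 165 CPM, and CD44 stood at 462 to 471 CPM and 447 to 465 CPM.

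Luminal urothelial genes lay on the other side, with 7 of 17 higher in CAL-29 and 2 in 5637, beside 5.77% and 4.96% of all genes. Their medians were -0.22 in CAL-29 and -0.67 in 5637. ELF3, an epithelial transcription factor, rose from 209.8 ± 8.07 to 483 ± 5.78 CPM in CAL-29 cells and fell from 154 ± 2.64 to 118 ± 5.69 CPM in 5637 cells, a difference of 1.58 ± 0.06 (adjusted p = 5.58e-15). The uroplakin gene UPK3B (0.16 and -1.23) and KRT7 (0.30 and -0.96) moved in opposite directions mainly through their fall in 5637, while KRT18 (-1.29 and -0.33) fell more in CAL-29. The 5 defining luminal markers UPK1B, UPK2, GATA3, PPARG and FOXA1 summed to between 462 and 501 CPM in CAL-29 siCtrl and between 467 and 474 CPM with siKMT9α#1, and to between 143 and 144 CPM and between 99.3 and 101 CPM in 5637. The even sum in CAL-29 covers members that went opposite ways, with UPK1B between 278 and 317 CPM with siCtrl and between 209 and 214 CPM with siKMT9α#1, and FOXA1 between 62.8 and 66.1 CPM and between 137 and 141 CPM.

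Squamous differentiation genes split. Of 18 tested, 7 were higher in CAL-29 and 5 in 5637, beside 5.77% and 4.96% of all genes. Called in opposite directions were 7 (4.33% of all genes), so the list's median difference of -0.70 describes few of its members. It ranged from -0.78 to 1.3 over the alternatives, since stricter filters removed low members, and 6 of the 18 had at least 50 counts in each group. S100A8, the partner of S100A9 in calprotectin, had the largest difference of the list among well-counted members. In CAL-29 cells, S100A8 stood at 3.76, 4.04 and 3.43 CPM in the siCtrl libraries and at 59.3, 66.7 and 66.6 CPM in the siKMT9α#1 libraries. In 5637 cells, S100A8 stood at 14.7, 15.2 and 14.4 CPM with siCtrl and at 8.58, 11.5 and 11.8 CPM with siKMT9α#1. The CAL-29 libraries rose and the 5637 libraries fell. S100A8 had log2 fold changes of 4.10 ± 0.10 in CAL-29 and -0.47 ± 0.09 in 5637, a difference of 4.57 ± 0.14 (adjusted p = 4.94e-20). LCN2, lipocalin 2, rose from 57.7 ± 2.62 to 294 ± 0.846 CPM in CAL-29 cells and fell from 3701 ± 148 to 2183 ± 57.8 CPM in 5637 cells. PI3, the elastase inhibitor elafin, rose in both lines, by 2.45 ± 0.11 in CAL-29 and by 0.38 ± 0.07 in 5637.

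Among genes of the extracellular matrix and its receptors, most calls lay on the 5637 side. Of 21 integrin and laminin chains, 8 were higher in 5637 (beside 4.96% of all genes) and 0 in CAL-29, with medians of -0.54 in CAL-29 and 0.16 in 5637, and 16 were downregulated in CAL-29 against 8 in 5637, beside 34.2% and 32.3% of all genes. ITGA5, the α chain of the fibronectin receptor, and the laminin chain LAMB3 moved in opposite directions, with log2 fold changes of -1.07 and 0.38 for ITGA5 and -0.97 and 0.19 for LAMB3 in CAL-29 and 5637. Of 21 collagens, 6 were higher in 5637 and 2 in CAL-29 (4.96% and 5.77% of all genes), with medians of -1.22 in CAL-29 and -0.24 in 5637. The basement membrane chain COL4A2 fell from 1183 ± 60.2 to 364 ± 18.0 CPM in CAL-29 cells and rose from 1412 ± 44.1 to 1651 ± 18.7 CPM in 5637 cells. COL4A1, which shares a promoter region with it, fell by 1.66 on the log2 scale in CAL-29 and stood at -0.01 ± 0.04 in 5637. COL12A1, a collagen that decorates fibrils, went the other way and rose from 291 ± 16.3 to 1118 ± 52.2 CPM in CAL-29 cells, with -0.01 ± 0.05 in 5637.

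TNC, the matrix glycoprotein tenascin C, had the largest difference among the well-counted members of its list. In CAL-29 cells, TNC stood at 1268, 1214 and 1203 CPM in the siCtrl libraries and at 116, 131 and 137 CPM in the siKMT9α#1 libraries. In 5637 cells, TNC stood at 466, 478 and 464 CPM with siCtrl and at 653, 619 and 628 CPM with siKMT9α#1. All CAL-29 libraries fell to well below the siCtrl level, and all 5637 libraries rose. TNC had log2 fold changes of -3.27 ± 0.05 in CAL-29 and 0.43 ± 0.05 in 5637, a difference of -3.70 ± 0.07 (adjusted p = 2.20e-24). Of 17 matricellular and matrix glycoprotein genes, 5 were higher in 5637 and 1 in CAL-29, beside 4.96% and 5.77% of all genes. The medians were -0.66 in CAL-29 and -0.49 in 5637. Fibronectin, FN1, fell in both lines and more in CAL-29 (-1.81 and -0.49), SPOCK1 passed 0.05 in CAL-29 alone (-1.24 and 0.06), and EFEMP1, which encodes fibulin 3, rose in CAL-29 and fell in 5637 (1.02 and -0.65). Of 20 matrix proteases and regulators of plasminogen activation, 5 were higher in 5637 and 1 in CAL-29. The exception was MMP7, a metalloproteinase of epithelial cells.

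In CAL-29 cells, MMP7 stood at 25.3, 23.7 and 21.5 CPM in the siCtrl libraries and at 30.2, 26.1 and 30.4 CPM in the siKMT9α#1 libraries. In 5637 cells, MMP7 stood at 15.3, 16.2 and 14.6 CPM with siCtrl and at 2.14, 1.58 and 2.21 CPM with siKMT9α#1. The CAL-29 groups lay close to each other without overlap, and the 5637 groups lay far apart. MMP7 had log2 fold changes of 0.29 ± 0.08 in CAL-29 and -2.95 ± 0.12 in 5637, a difference of 3.24 ± 0.15 (adjusted p = 3.12e-15). The metalloproteinase genes MMP2 (-1.82 and -0.76) and MMP14 (-1.61 and -0.62) fell in both lines and more in CAL-29. Of 13 genes of epithelial-mesenchymal transition, 3 were higher in 5637 and 1 in CAL-29, beside 4.96% and 5.77% of all genes. Only 5 of the 13 had at least 50 counts in each group. N-cadherin, CDH2, fell from 121 ± 9.71 to 27.9 ± 0.581 CPM in CAL-29 cells and from 141 ± 6.47 to 105 ± 2.64 CPM in 5637 cells. Of 25 genes of epithelial junctions and desmosomes, 7 were higher in 5637 and 1 in CAL-29, with DSC3 (-0.96 and 0.48), a desmosomal cadherin, and OCLN (-0.61 and 0.33), the tight junction protein occludin, in opposite directions. DSC2 fell by 1.54 on the log2 scale in CAL-29 and stood at 0.03 ± 0.05 in 5637.

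Genes read as output of YAP and TEAD, which respond to adhesion and tension, had their calls on the 5637 side. Of 22, 7 were higher in 5637 and 0 in CAL-29, beside 4.96% and 5.77% of all genes. The medians were -0.56 in CAL-29 and -0.12 in 5637, and 16 and 12 members were downregulated, beside 34.2% and 32.3% of all genes. NUAK2, a kinase, fell from 90.7 ± 0.95 to 18.1 ± 0.960 CPM in CAL-29 cells and from 52.9 ± 1.24 to 37.6 ± 1.4 CPM in 5637 cells, ANKRD1 had log2 fold changes of -1.95 and -0.73, and GADD45B -1.11 and 0.17. The TEAD element GGAATG was present on either strand in 7 of 17 promoters of this list (41.2%) and in 11% of all promoters. Of 21 SMAD-responsive genes and ligands, 4 were higher in 5637 and 2 in CAL-29. SMAD7, the feedback inhibitor, changed by -1.53 ± 0.06 in CAL-29 and stood at -0.07 ± 0.06 in 5637, and INHBA, a subunit of activin A, fell from 106 ± 10.1 to 64.8 ± 7.70 CPM in CAL-29 cells and rose from 144 ± 16.6 to 245 ± 15.7 CPM in 5637 cells. ID1, a target of BMP signalling, was on the other side (0.94 and 0.11), with the call lost in DESeq2. Of 18 SRF-linked actin genes, 3 were higher in each line, and 17 were downregulated in CAL-29 and 14 in 5637, beside 34.2% and 32.3% of all genes. The 3 higher in CAL-29 had a mean below 50 counts in some group and are not named. Of the 18 differences, 13 were below 0 and 5 above. Filamin A, FLNA (-1.57 and -0.62), and zyxin, ZYX (-1.5 and -0.73), fell in both lines and more in CAL-29, with the call of ZYX lost under total count scaling.

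Among growth factor and receptor genes, calls fell on both sides. Of 13 EGFR family receptors and ligands, 2 were higher in each line, beside 5.77% of all genes in CAL-29 and 4.96% in 5637. In this list 8 of the 13 had at least 50 counts in each group. TGFA, a ligand of EGFR, is an example of the 5637 side. In CAL-29 cells, TGFA stood at 114, 106 and 97.1 CPM in the siCtrl libraries and at 97.9, 88.1 and 91.4 CPM in the siKMT9α#1 libraries. In 5637 cells, TGFA stood at 103, 105 and 99.3 CPM with siCtrl and at 213, 209.5 and 219 CPM with siKMT9α#1. In CAL-29 cells the groups overlapped, and in 5637 cells every siKMT9α#1 library lay above every siCtrl library. TGFA had log2 fold changes of -0.19 ± 0.05 in CAL-29 and 1.06 ± 0.05 in 5637, a difference of -1.25 ± 0.07 (adjusted p = 1.01e-09). HBEGF, another EGFR ligand, rose in both lines and more in 5637, from 114 ± 5.74 to 322 ± 7.71 CPM there and from 7.89 ± 1.22 to 11.7 ± 0.986 CPM in CAL-29. The Notch ligand JAG1 fell from 759 ± 39.3 to 574 ± 9.88 CPM in CAL-29 cells and rose from 514 ± 13.2 to 1107 ± 38.4 CPM in 5637 cells. JAG1 was the single call among 17 genes of the Notch pathway (5.9%, beside 10.7% of all genes). Of 18 Wnt feedback and target genes, 3 were higher in 5637 and 2 in CAL-29, and 9 of the 18 had at least 50 counts in each group. The list's median difference ranged from -0.81 to -0.39 over the alternatives. WNT7A (-0.40 and 1.21) moved in opposite directions, the secreted protein DKK3 (-2.50 and -0.65) fell more in CAL-29, and WNT5A rose in CAL-29 (1.11 and 0.01).

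Immediate early genes were split, with 3 of 17 higher in each line, beside 5.77% of all genes in CAL-29 and 4.96% in 5637. EGR1, a zinc finger factor induced within minutes by growth factors, went from 318 ± 78.4 to 81.4 ± 14 CPM in 5637 cells and from 6.52 ± 0.751 to 8.64 ± 1.22 CPM in CAL-29 cells, a difference of 2.36 ± 0.23 (adjusted p = 1.02e-07). ATF3 fell from 91.2 ± 2.65 to 55.7 ± 3.17 CPM in CAL-29 cells and rose from 21.6 ± 2.21 to 38.4 ± 4.89 CPM in 5637 cells. ATF3 also belongs to the 16 targets of ATF4, the factor of the integrated stress response, of which 4 were higher in 5637 and 0 in CAL-29, with medians of 0.06 and 0.35. DDIT3, which encodes CHOP, rose in both lines, by 0.31 ± 0.06 in CAL-29 and 1.53 ± 0.06 in 5637, and the amino acid transporter chain SLC3A2 moved in opposite directions (-0.34 and 0.56). NRF2 targets, the genes of the oxidative stress response, lay on the other side, with 5 of 18 higher in CAL-29 and 0 in 5637 and medians of 0.75 and 0.23. Heme oxygenase 1, HMOX1, rose from 24.6 ± 1.09 to 103 ± 9.03 CPM in CAL-29 cells and from 11.5 ± 0.233 to 18.8 ± 2.42 CPM in 5637 cells. AKR1C2 (2.20 and 0.95) and AKR1C3 (1.01 and -0.11) are close paralogs whose reads could be split between them.

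**Figure D4:**
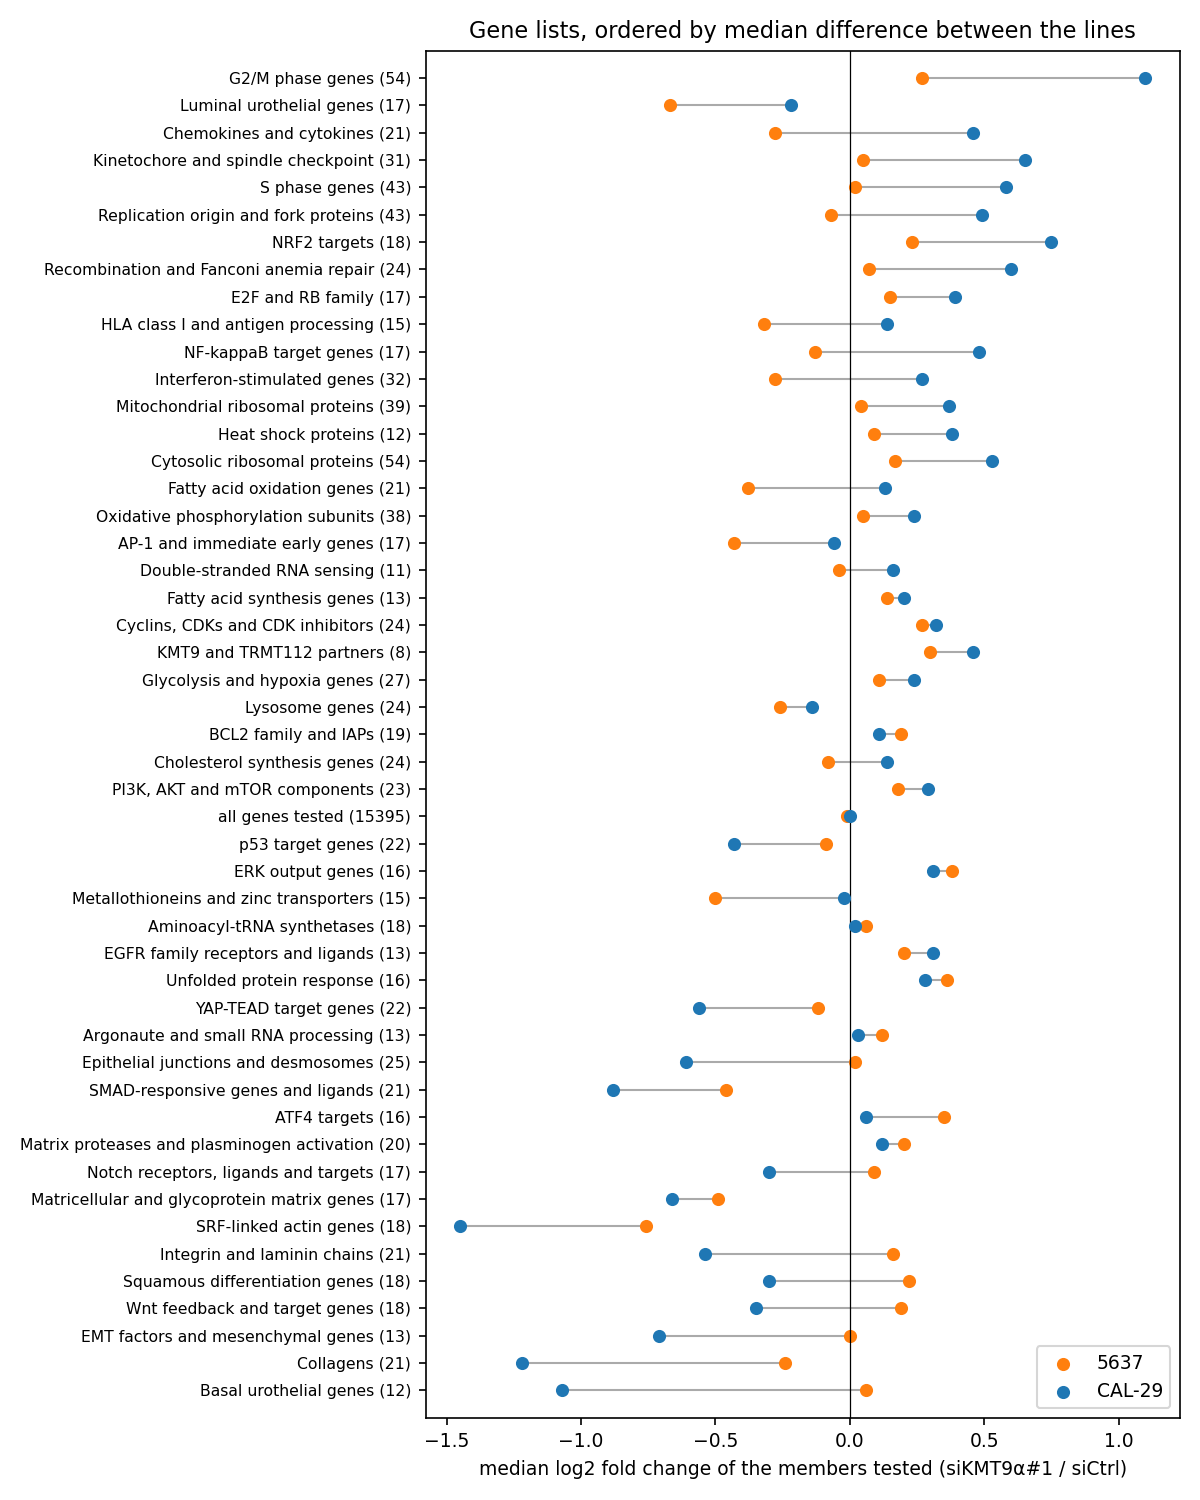
Median log2 fold change with siKMT9α#1 in CAL-29 cells (blue) and 5637 cells (orange) for each gene list, with the number of members tested in parentheses, ordered from the highest to the lowest difference between the lines. G2/M phase genes stand at 1.10 in CAL-29 and 0.27 in 5637 at the top, and basal urothelial genes at -1.07 and 0.06 at the bottom, beside about 0 in both lines for all genes tested.

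The study's text names 16 genes beside N6AMT1 and TRMT112, and 4 of them passed the 1.5-fold test. CDK1 and BIRC5 are named there for other cells than these lines. The study's results name CAV1 and THBS1 for mouse organoid cells. Its discussion lists both, with BMP2, among genes changed by KMT9α depletion, without naming the cells. The remaining genes are named for these lines. CDK1 is the kinase of mitotic entry. In CAL-29 cells, CDK1 stood at 60.0, 58.2 and 68.0 CPM in the siCtrl libraries and at 140.1, 144 and 140.4 CPM in the siKMT9α#1 libraries. In 5637 cells, CDK1 stood at 55.3, 50.8 and 55.1 CPM with siCtrl and at 67.2, 72.6 and 70.9 CPM with siKMT9α#1. Every siKMT9α#1 library lay above siCtrl in both lines, with the larger step in CAL-29. CDK1 had log2 fold changes of 1.19 ± 0.05 in CAL-29 and 0.39 ± 0.05 in 5637, a difference of 0.80 ± 0.07 (adjusted p = 0.00808). BIRC5, which encodes survivin, moved in opposite directions. In CAL-29 cells, BIRC5 stood at 32.6, 35.5 and 40.4 CPM in the siCtrl libraries and at 53, 54.0 and 53.8 CPM in the siKMT9α#1 libraries. In 5637 cells, BIRC5 stood at 63.0, 70.0 and 67.5 CPM with siCtrl and at 51.5, 56.1 and 55.0 CPM with siKMT9α#1. The steps were small and the libraries did not overlap within a line. BIRC5 had log2 fold changes of 0.57 ± 0.06 in CAL-29 and -0.30 ± 0.06 in 5637, a difference of 0.87 ± 0.08 (adjusted p = 0.00314). BMP2, a bone morphogenetic protein, also moved in opposite directions, with -0.24 ± 0.05 in CAL-29 and 0.54 ± 0.06 in 5637 (difference -0.79 ± 0.07, adjusted p = 0.0142). The calls of CDK1, BIRC5 and BMP2 were lost with DESeq2, and that of BMP2 also without replicate 1 of 5637 siCtrl or replicate 3 of 5637 siKMT9α#1.

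CCN2, a matricellular YAP target, fell in both lines. In CAL-29 cells, CCN2 stood at 99.0, 92.1 and 84.4 CPM in the siCtrl libraries and at 7.29, 6.55 and 6.12 CPM in the siKMT9α#1 libraries. In 5637 cells, CCN2 stood at 134, 151 and 112 CPM with siCtrl and at 34.6, 40.8 and 46.0 CPM with siKMT9α#1. The CAL-29 libraries fell to the lowest levels of the 4 groups. CCN2 had log2 fold changes of -3.78 ± 0.11 in CAL-29 and -1.71 ± 0.08 in 5637, a difference of -2.07 ± 0.14 (adjusted p = 1.93e-10). The kinase genes NEK7, WEE1, AKT1 and CDK6 and the receptor gene EGFR fell in both lines with differences of -0.20, 0.05, 0.17, 0.16 and -0.26, and none passed the 1.5-fold test. The 95% intervals were -0.40 to -0.12 for EGFR, 0.03 to 0.30 for AKT1 and -0.08 to 0.18 for WEE1. ITGA6, THBS1 and CAV1, genes of adhesion and membrane domains, fell in both lines, with differences of -0.64 ± 0.06, -0.63 ± 0.10 and -0.66 ± 0.06 that did not pass the 1.5-fold test, and BIRC2, an inhibitor of apoptosis, fell in both with a difference of 0.57 ± 0.07. The call of CAV1 was gained without replicate 1 of CAL-29 siCtrl. DAG1 and ICAM1 had differences of -0.30 ± 0.06 and -0.18 ± 0.09, and TNF, at 3.48 CPM or less in every library, -0.50 ± 0.43. Apart from CDK1 and BIRC5, these genes were named with these libraries in view, or may have been for CAV1, THBS1 and BMP2. Their directions within a line are therefore no independent evidence.

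Several lists had no call in either direction. These were 54 cytosolic ribosomal proteins, 38 subunits of oxidative phosphorylation, 24 lysosome genes, 16 genes of the unfolded protein response, 13 of Argonaute and small RNA processing, 12 heat shock proteins and 8 KMT9 and TRMT112 partners. Cytosolic ribosomal protein genes were on 1 side of 0 almost throughout, with 53 of 54 differences above 0, a median difference of 0.33 and medians of 0.53 in CAL-29 and 0.17 in 5637. Oxidative phosphorylation had 37 of 38 differences above 0 with a median of 0.22, and 39 mitochondrial ribosomal proteins had 38 above 0 with a median of 0.36 and 1 call, MRPS27, that was lost with DESeq2. Over all genes, 8273 of 15395 differences were above 0. For the partners of TRMT112, which include BUD23, METTL5 and ALKBH8, the median difference was 0.12, and for the Argonaute list, whose proteins carry siRNAs, it was -0.18.

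Sites for the siRNA seed were counted in 3′ UTRs because the 2 lines received different doses. The site is the heptamer ACATTCA, complementary to guide positions 2 to 8, and 13939 of the 15395 genes (90.5%) had an annotated 3′ UTR. Among the genes that led the larger decreases in 5637, MEST, C15orf48 and GCNT2 held no site in the longest 3′ UTR. TNFSF15 held 1 in 5800 bases and CYP24A1 held 2 in 1326 bases. Of other named genes that fell in 5637, CXCL6, MCM6, E2F5 and TFDP2 held 1 each, and CFB, METTL7A and MMP7 held none. Among the genes named by the study, NEK7, AKT1, BIRC2, DAG1, ICAM1 and THBS1 held 1, CDK6 and ITGA6 held 2, and EGFR held 3. CDK1, BIRC5, CCN2, WEE1, TNF, CAV1 and BMP2 held none. The first sites of TNFSF15 (chr9:117547292-117547314) and CYP24A1 (chr20:52771054-52771076), both on the minus strand of GRCh37, are shown in capitals.
TNFSF15: cagtgtatACATTCAggaggaac
CYP24A1: tgcctaccACATTCActgtttga
In the longest annotated 3′ UTR, 2115 of the 13939 genes (15.2%) held the site. Their median log2 fold change was -0.23 in CAL-29 and -0.30 in 5637, against 0.05 and 0.02 for the 11824 genes without it, whose 3′ UTRs were shorter (median 1257 bases, against 3414 with the site). The median difference between the lines was 0.10 with and 0.05 without the site, and 12.8% against 11.1% passed the 1.5-fold test. By class, the site was in 45 of 111 genes downregulated in both lines with the larger decrease in 5637 (40.5%), in 37 of 161 with the larger decrease in CAL-29 (23%), in 68 of 342 upregulated in CAL-29 and downregulated in 5637 (19.9%) and in 32 of 303 of the reverse class (10.6%). Median longest 3′ UTRs were 1939, 1720, 1258.5 and 1818 bases in these classes and 1487 bases over all genes. With the shortest 3′ UTR the first of these shares was 18.0%, beside 5.9% of all genes. These shares are a description, a match is not a measured site, and the part of the seed in any difference between the lines was not tested.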

How the data were processed

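RNAseq of 12 samples was used, and the titles gave the line, the siRNA and the replicate of each. Per the study's methods and the labels, the authors used STAR for alignment to hg19, HOMER for counting over RefSeq transcripts and edgeR for testing each line. The deposited tables hold the authors' estimated counts per transcript without normalization, of which 37.3% are not whole, for 37400 transcripts of 23064 symbols. Their columns of test results for each line (fold change on the log2 scale, raw and adjusted p-value) were not used. No column of sample values was left out.

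The tables were joined by transcript, each symbol was represented by its transcript of highest count summed over the 12 columns, and counts were rounded. In edgeR 4.0.16 (limma 3.58.1, R 4.3.3), genes were filtered with filterByExpr by the 4 groups and scaled with TMM. For the interaction (CAL-29 minus 5637), the quasi-likelihood F test and glmTreat against 1.5-fold were run, with Benjamini-Hochberg adjustment over all genes tested, in 1 fit of all 12 libraries without a replicate block. SE is the log2 value divided by the square root of F, SD is over 3 libraries, and values with ± are an estimate and its SE for log2 values and a mean and its SD for CPM. Adjusted p-values without a further name are those of the 1.5-fold test. Libraries held at least 24479488 counts, and genes with few counts carry counting error beside the spread between replicates. Lists were described by counts and medians only, and some members are not reported here.

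The named genes were taken by rule from those with a mean of at least 50 counts in each group: 6 per direction with the largest smaller change among opposite calls, 6 per line with the largest difference among same-direction calls, the genes named in the study's text, and up to 4 called members per list with the largest difference. Genes and lists were chosen with earlier results of these data known. 3′ UTRs and positions are from the GENCODE annotation of GRCh37, with 3′ UTRs of at least 50 bases, and promoters from RefSeq (GRCh38.p14, 11995 genes matched). The alternatives tried were other scalings and filters, DESeq2 1.42.0, separate fits, a replicate block, other thresholds and leaving out each library. The tests were checked on simulated counts. Tables and plots were made with Python 3.11.15, pandas 2.3.3, numpy 2.4.6 and matplotlib 3.10.9.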

Additional observations from a re-analysis of the deposited data

Results flagged for a closer look

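The response to knockdown differed between the lines by the test of the difference itself for 889 genes that were more than 1.5-fold higher in CAL-29 and 764 that were more than 1.5-fold higher in 5637, and 666 of these genes moved in opposite directions. Differences of log2 fold changes, CAL-29 minus 5637, are given in parentheses. Upregulated in CAL-29 and downregulated in 5637 were CXCL6 (5.72), CFB (4.97), METTL7A (3.25), LIMCH1 (3.00), MUC20 (2.82) and CSF1 (2.39). Downregulated in CAL-29 and upregulated in 5637 were WNT9A (-3.21), SERPINB2 (-2.34), N4BP3 (-2.16), ADAMTS15 (-2.96), FAM43A (-1.93) and CCDC88B (-1.77). A change of the same direction was larger in CAL-29 for S100A9 (3.34), KRT16 (-3.24), ANKRD34B (-2.77), TMCC2 (-2.64), STEAP1 (2.62) and ITGA1 (-2.57), and larger in 5637 for IL6R (-2.89), TNFSF15 (2.46), CYP24A1 (2.45), MEST (2.12), C15orf48 (1.91) and GCNT2 (1.78). Of the genes named in the study's text, CDK1 (0.80), BIRC5 (0.87), CCN2 (-2.07) and BMP2 (-0.79) passed the 1.5-fold test. Others, among them EGFR, ITGA6 and CAV1, had smaller differences with 95% intervals that excluded 0. Line, transfection reagent and siRNA dose cannot be told apart in these differences. With 3 libraries in each group, no single library was tested as standing apart.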

How the results depend on the processing

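The counts kept within 1.5 times of their values under most alternatives. DESeq2 gave 585 genes over 1.5-fold and higher in CAL-29 in place of 889 (569 higher in 5637 in place of 764), and 501 in opposite directions. An adjusted p below 0.05 in place of p below 1e-06 gave 7764 genes in place of 2421, a 2-fold in place of a 1.5-fold test 537 in place of 1653, and asking for 1.5-fold in each line 186 opposite genes in place of 666. Without single libraries, 2032 to 2785 genes passed 1e-06, 1479 to 1672 the 1.5-fold test (807 to 902 higher in CAL-29, 672 to 782 higher in 5637), 589 to 672 were opposite, and the N6AMT1 difference was 0.11 to 0.494. With the replicate number as a block within each line, 2857 genes passed 1e-06, 1710 the 1.5-fold test and 698 were opposite, and no named gene changed its call. Whether the numbers pair the libraries is not stated. Deviations of same-numbered siCtrl and siKMT9α#1 libraries correlated at 0.175, 0.036 and 0.054 in CAL-29 and 0.17, 0.011 and 0.001 in 5637. Those of differently numbered libraries correlated at -0.15 to 0.111 in CAL-29 and -0.104 to 0.101 in 5637. These values do not settle whether the libraries are paired. None of the 163 named genes that were called changed direction under these alternatives. Of the 163 named genes, 23 lost the 1.5-fold call with DESeq2, 13 with separate fits and 8 with total counts (BMP2, SESN2, MCL1, IER3, KLF4, IRS1, ZYX and SNAI2). With single libraries left out, the calls of E2F2, FANCE, BLM, IFI35, TLR3, IKBKE, TAPBP, ETV4, SNAI2, BMP2, ACSS2, ECI2, CPT1A, MRPS27 and VARS were lost at least once. List medians moved under total counts in 47 of 51 lists, where the median of all genes rose to 0.16, and the sign of the median changed under some alternative for aminoacyl-tRNA synthetases, EGFR family, ERK output, p53 targets, unfolded protein response, metallothioneins and squamous genes. Genes with few counts in a group are limited by depth: 12883 genes had at least 10 counts in every library.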

Other observations

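Metabolic genes not described above had calls on both sides. Of 21 fatty acid oxidation genes, 3 were higher in CAL-29 and 1 in 5637, beside 5.77% and 4.96% of all genes. Of the 21, 13 were downregulated in 5637 and 8 in CAL-29, beside 32.3% and 34.2% of all genes. ACADM, the medium-chain acyl-CoA dehydrogenase, had log2 fold changes of -0.06 ± 0.07 in CAL-29 and -0.97 ± 0.06 in 5637, while ACAA2, the thiolase of the pathway, fell more in CAL-29 (-1.28 ± 0.07 and -0.38 ± 0.06). Of 27 genes of glycolysis and hypoxia, 4 were higher in 5637 and 1 in CAL-29. PFKFB4, which makes the activator of phosphofructokinase, fell from 87.3 ± 11.7 to 25.5 ± 4.17 CPM in CAL-29 cells, against 7.93 ± 0.692 and 7.0 ± 0.484 CPM in 5637 cells. PFKL, the liver-type phosphofructokinase, rose in CAL-29 and fell in 5637 (0.57 ± 0.05 and -0.68 ± 0.05), and VEGFA, the vascular growth factor, rose in 5637 (1.07 ± 0.08) with 0.14 ± 0.07 in CAL-29. Of 24 cholesterol synthesis genes, 2 were higher in CAL-29 and 0 in 5637, a share near that of all genes (5.77% and 4.96%). ELOVL6, a fatty acid elongase, rose in both lines and more in CAL-29 (2.52 ± 0.08 and 1.31 ± 0.07).

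Of 23 PI3K, AKT and mTOR components, 3 were higher in 5637 and 1 in CAL-29. The catalytic subunit gene PIK3CD fell more in CAL-29 (-1.42 ± 0.10 and -0.36 ± 0.07), and PIK3R3, a regulatory subunit, rose more there (1.87 ± 0.05 and 1.0 ± 0.05). Of 16 ERK output genes, 2 were higher in CAL-29 and 1 in 5637, with PHLDA1 rising in both lines (2.30 ± 0.05 and 1.36 ± 0.05) and IER3 moving in opposite directions (-0.32 ± 0.04 and 0.48 ± 0.04). Of 19 genes of the BCL2 family and the inhibitors of apoptosis, 2 were higher in CAL-29 and 1 in 5637, the latter being MCL1 (-0.30 ± 0.04 and 0.44 ± 0.04). Called were 17.4% of the PI3K list, 18.8% of the ERK list and 15.8% of the BCL2 list, beside 10.7% of all genes. Among 15 metallothioneins and zinc transporters, 4 were higher in CAL-29 and 0 in 5637, beside 5.77% and 4.96% of all genes. The calls of IER3 and MCL1 were lost with total count scaling, and that of VEGFA with DESeq2.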
